A study of Mus musculus with 23 samples.

Results

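Cold exposure switches brown adipose tissue (BAT) into heat production, and most accounts of the transcripts that move with it dwell on thermogenic genes. The 7 genes described here, Klhdc7a, Rasl12, Tspan18, A530016L24Rik, 3930402G23Rik, Adam12 and Cldn1, are seldom discussed in this tissue. They were picked by name, without a numerical threshold, from the genes with the largest cold differences in both genotypes, and they are 7 of the 14651 genes in the deposited table. Because the cold difference chose them, it is described below without a test, and tests were kept for genotype, which was not itself a ground for the choice.

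RNA was sequenced from the BAT of 23 male C57BL/6 mice aged 8 to 12 weeks. All carried the floxed Mcu allele on both chromosomes (Mcu fl/fl), controls included, and the BAT-Mcu-KO mice (Mcu fl/fl;Ucp1-Cre) also carried a transgene in which the Ucp1 promoter drives Cre, so that cells of BAT that do not express Ucp1 kept Mcu, the pore of the mitochondrial calcium uniporter. The groups were Ctrl RT (n = 6), Ctrl 4C (n = 5), BAT-Mcu-KO RT (n = 6) and BAT-Mcu-KO 4C (n = 6), where RT is room temperature and 4C is 6 h at 4°C in individual cages without bedding or, unless otherwise indicated, food. Mice were in general housed in groups with chow, and whether the RT mice had food during those 6 h is not given in the sources used here, so the part of food withdrawal was not tested.

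In the cold, sympathetic nerves release norepinephrine onto brown adipocytes, and beta-adrenergic receptors, cAMP and protein kinase A then change both lipid use and transcription. BAT also holds endothelial, mural, immune and stromal cells. The 7 genes have varied roles. Klhdc7a encodes a Kelch-repeat protein, Rasl12 a Ras-like small GTPase, and Tspan18 a tetraspanin, a membrane protein of a family that organizes partner proteins. A530016L24Rik, also listed under the synonym Nrac, encodes a small protein named for its nutritional regulation in fat and heart. Adam12 encodes a membrane-anchored disintegrin and metalloprotease, Cldn1 a claudin that seals tight junctions between epithelial cells, and 3930402G23Rik is annotated as a long intergenic non-coding RNA.

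By the GRCm38 annotation the genes lie on 7 different chromosomes. Klhdc7a is a gene of 1 exon at chr4:139960220-139968026 (minus strand), and Rasl12 is at chr9:65398506-65414853 (plus). Tspan18 is at chr2:93201760-93334505 (minus) and A530016L24Rik at chr12:112489448-112499927 (plus). The genes higher at 4°C are 3930402G23Rik at chr8:10924427-10928696, Adam12 at chr7:133883199-134232146 and Cldn1 at chr16:26356642-26371841, all on the minus strand.

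RefSeq promoter windows (GRCm38.p6) matched 4 of the 7 genes, 2 that were lower and 2 that were higher at 4°C. They are shown because genes that differ this strongly after 6 h invite a look at the bases before their start sites. Each sequence is the 250 bases before the RefSeq start, read 5′ to 3′ on the gene's strand, at chr4:139968027-139968276 for Klhdc7a, chr9:65398238-65398487 for Rasl12, chr8:10928458-10928707 for 3930402G23Rik and chr16:26371840-26372089 for Cldn1. For 3930402G23Rik the RefSeq start lies inside the gene as given above, so that most of its window is within the annotated gene.
Klhdc7a: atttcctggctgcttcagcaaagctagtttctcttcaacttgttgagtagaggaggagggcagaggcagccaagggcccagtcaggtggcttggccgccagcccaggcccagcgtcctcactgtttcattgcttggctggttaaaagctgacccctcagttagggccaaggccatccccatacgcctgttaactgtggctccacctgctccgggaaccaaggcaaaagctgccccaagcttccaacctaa
Rasl12: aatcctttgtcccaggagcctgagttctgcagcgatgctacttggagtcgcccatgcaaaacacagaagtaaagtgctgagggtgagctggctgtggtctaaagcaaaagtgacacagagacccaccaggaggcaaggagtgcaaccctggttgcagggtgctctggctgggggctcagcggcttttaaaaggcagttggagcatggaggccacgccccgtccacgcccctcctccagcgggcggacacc
3930402G23Rik: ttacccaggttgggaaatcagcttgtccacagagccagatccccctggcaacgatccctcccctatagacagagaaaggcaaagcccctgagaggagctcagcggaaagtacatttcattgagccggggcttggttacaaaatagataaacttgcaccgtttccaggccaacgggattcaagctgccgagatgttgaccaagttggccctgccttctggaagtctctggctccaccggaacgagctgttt
Cldn1: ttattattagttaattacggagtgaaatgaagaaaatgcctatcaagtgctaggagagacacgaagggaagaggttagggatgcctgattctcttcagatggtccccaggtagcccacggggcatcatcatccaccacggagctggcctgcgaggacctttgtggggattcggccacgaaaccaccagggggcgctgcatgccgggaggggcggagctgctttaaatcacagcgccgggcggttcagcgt

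Capitals were reserved for motif matches, and there were none. The search covered both strands of the 300 bases from 250 before to 50 after the start for the full cAMP response element TGACGTCA, its half-site TGACG, which the full element contains, the E-box CACGTG, the nuclear receptor half-site AGGTCA, the C/EBP-ATF element TGATGNAA and the TATA box TATAAA. Of all 32851 windows, 1.79% held the full element, 20.8% its half-site, 7.15% the E-box, 16.3% the nuclear receptor half-site, 3.97% the C/EBP-ATF element and 13.6% the TATA box. The absence says only that these letters are not in the 4 windows. GC content was 56.8% for Klhdc7a, 59.2% for Rasl12, 53.2% for 3930402G23Rik and 55.6% for Cldn1.

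Values are normalized counts, the reads of a gene divided by the size factor of its library, at depths of 7129271 to 21006347 reads per mouse. Mcu matched the labels, being at 81.4 to 136 normalized counts in Ctrl RT and 70.8 to 132 in Ctrl 4C, against 15.2 to 42.4 in BAT-Mcu-KO RT and 24.02 to 39.9 in BAT-Mcu-KO 4C. Ucp1, the uncoupling protein of brown adipocytes, was higher at 4°C by a log2 difference of 1.37 (SE 0.10) in control and 1.47 (SE 0.10) in BAT-Mcu-KO mice (limma adjusted p = 1.0e-10 and 1.3e-11). All 11 brown adipocyte markers, Ucp1 among them, were measured, and their sum was 319387 to 391945 at 4°C against 211925 to 294603 at RT in controls and 326438 to 365900 against 209539 to 235267 in BAT-Mcu-KO mice. Ucp1 is a large part of that sum, with control means of 63858.5 at RT and 165205 at 4°C. By limma, 6 of the 11 rose and 4 fell in controls, and 5 rose and 1 fell in BAT-Mcu-KO mice. Over all genes, 22.3% rose and 23.7% fell in controls, beside 21.4% and 21.9% in BAT-Mcu-KO mice. The summed endothelial markers (10 of 10 measured) were higher at 4°C, at 10021 to 15241 against 6382 to 7926 in control and 9494 to 14020 against 5697 to 7877 in BAT-Mcu-KO mice. Of these 10, 4 rose and 2 fell in controls, and 4 rose and 1 fell in BAT-Mcu-KO mice. Summed macrophage markers (9 of 10) ranged from 978 to 1568 against 781 to 1206 and from 1216 to 1717 against 655 to 1175. Summed mural and smooth muscle markers (8 of 8) tended lower at 4°C with overlapping ranges, 5243 to 7941 against 6838 to 9079 and 5389 to 7285 against 6611 to 8704. Of the 8, 4 fell and 1 rose in controls, and 3 fell and 2 rose in BAT-Mcu-KO mice. The part of these cell types in the differences below was not tested, and in bulk tissue fewer cells of a type and less RNA per cell cannot be told apart.

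The transcript of Klhdc7a was nearly lost in the cold. Its normalized count was 571 to 978 in Ctrl RT (median 762) and 570 to 982 in BAT-Mcu-KO RT (median 744). The 5 Ctrl 4C mice were at 18.2, 18.2, 41.1, 23.5 and 30.5, and the BAT-Mcu-KO 4C mice at 10.98 to 38.0 (median 20.3). The 4C values rest on 9 to 49 reads per mouse, above the limit of 3 reads that a count of 0 would allow. Control means of 768 ± 174 at RT and 26.3 ± 9.67 at 4°C (SD, n = 6 and 5) leave 3.42% of the RT level. In BAT-Mcu-KO mice, means of 770 ± 163 and 22.1 ± 10.8 (SD, n = 6 each) leave 2.87%. By log2 difference, -4.85 (SE 0.26) in control and -5.17 (SE 0.25) in BAT-Mcu-KO mice, it was the 2nd largest decrease among all genes in each genotype.

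A530016L24Rik was the next most reduced of the 4. Its normalized counts lay between 1015 and 1377 in Ctrl RT (median 1195) and between 735 and 1219 in BAT-Mcu-KO RT (median 1114). The Ctrl 4C mice were at 91.0, 176, 99.6, 49.95 and 64.1, and the BAT-Mcu-KO mice at 57.6 to 116 (median 77.3). The highest mouse at 4°C, a control, was still far below the lowest at RT. The mean at 4°C was 8.13% of that at RT in control mice (1182 ± 154 against 96.1 ± 48.9, SD, n = 6 and 5) and 7.77% in BAT-Mcu-KO mice (1074 ± 179 against 83.5 ± 26.1, SD, n = 6 and 6), with log2 differences of -3.73 (SE 0.23) and -3.71 (SE 0.22).

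Rasl12 and Tspan18 kept a larger share of their RT level. Rasl12 was at 1279 to 1895 normalized counts in Ctrl RT (median 1598) and 1118 to 1691 in BAT-Mcu-KO RT (median 1382). In the cold the control mice were at 170, 152, 195, 160 and 233 and the BAT-Mcu-KO mice at 104 to 234 (median 188). The log2 difference was -3.11 (SE 0.17) in control and -2.95 (SE 0.16) in BAT-Mcu-KO mice, which left 11.6% and 13.1% of the RT mean.

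Tspan18, at RT, had normalized counts of 2017 to 2834 in control (median 2495) and 1771 to 2689 in BAT-Mcu-KO mice (median 2298). At 4°C the control mice were at 392, 504, 381, 326 and 290 and the BAT-Mcu-KO mice at 245 to 501 (median 328). In both genotypes the values at 4°C lay well under those at RT and overlapped between the genotypes. The log2 difference was -2.70 (SE 0.15) in control and -2.74 (SE 0.15) in BAT-Mcu-KO mice, with 15.5% and 15.1% of the RT mean left. Tetraspanin 18 is known from endothelial cells. Their summed markers were higher at 4°C as given above, though single markers went both ways, while Tspan18 was lower. The part of endothelial cells in the Tspan18 difference was not tested.

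By log2 difference, Cldn1 had the largest increase of the 7 in both genotypes. By the ratio of means in BAT-Mcu-KO mice, 3930402G23Rik (40.2-fold) was ahead of it. At RT it was barely detected, at 7.25 to 34.9 normalized counts in control (median 17.6, from 7 to 46 reads) and 0.987 to 35.7 in BAT-Mcu-KO mice (median 26.5, from 1 to 39 reads). At 4°C the control mice were at 941, 690, 923, 742 and 1269 and the BAT-Mcu-KO mice at 460 to 894 (median 827). Every mouse at 4°C thus stood an order of magnitude above every mouse at RT. The means, 18.9 ± 10.7 (SD, n = 6) against 913 ± 227 (SD, n = 5) in control and 22.6 ± 14.3 (SD, n = 6) against 743 ± 180 (SD, n = 6) in BAT-Mcu-KO mice, differed 48.2-fold and 32.8-fold. The log2 difference of 5.67 (SE 0.52) was the 5th largest increase among all genes in control mice, and that of 5.42 (SE 0.49) the 6th largest in BAT-Mcu-KO mice. BAT-Mcu-KO RT replicate 6 had 1 read of Cldn1, and without it the latter difference was 4.80. That of 3930402G23Rik was 5.25, and 5.10 or more with any mouse left out, so the order of the pair in BAT-Mcu-KO mice rests on that mouse. Cldn1 is best known from epithelia, and none of the 7 epithelial markers listed (Epcam, Cdh1 and 5 keratins) was in the deposited table, which left out genes of low count.

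The non-coding 3930402G23Rik was the most variable of the 3 increased genes among mice at 4°C. It was at 20.8 to 85.9 normalized counts in Ctrl RT (median 32.4) and 11.8 to 28.5 in BAT-Mcu-KO RT (median 21.03), from 12 to 113 reads. The Ctrl 4C mice were at 1456, 335, 1026, 806 and 903, so that the highest was 4.34-fold above the lowest. The BAT-Mcu-KO 4C mice were at 449 to 1287 (median 754). The means differed 22.6-fold in control mice (40.0 ± 23.9 against 905 ± 404, SD, n = 6 and 5) and 40.2-fold in BAT-Mcu-KO mice (19.8 ± 6.54 against 798 ± 282, SD, n = 6 and 6). The log2 differences were 4.48 (SE 0.34) and 5.25 (SE 0.32).

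Adam12 moved least and most evenly. Its normalized count was 194 to 306 in Ctrl RT (median 269) and 236 to 366 in BAT-Mcu-KO RT (median 268). After 6 h at 4°C the control mice were at 1996, 1278, 1551, 1610 and 1594 and the BAT-Mcu-KO mice at 1351 to 1757 (median 1626). The mean was 6.11-fold higher in control mice (263 ± 37.9 against 1606 ± 257, SD, n = 6 and 5) and 5.70-fold higher in BAT-Mcu-KO mice (282 ± 48.0 against 1609 ± 149, SD, n = 6 and 6). The log2 differences were 2.61 (SE 0.12) and 2.52 (SE 0.12), the 224th and 199th largest of all genes in either direction.

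**Figure D1:**
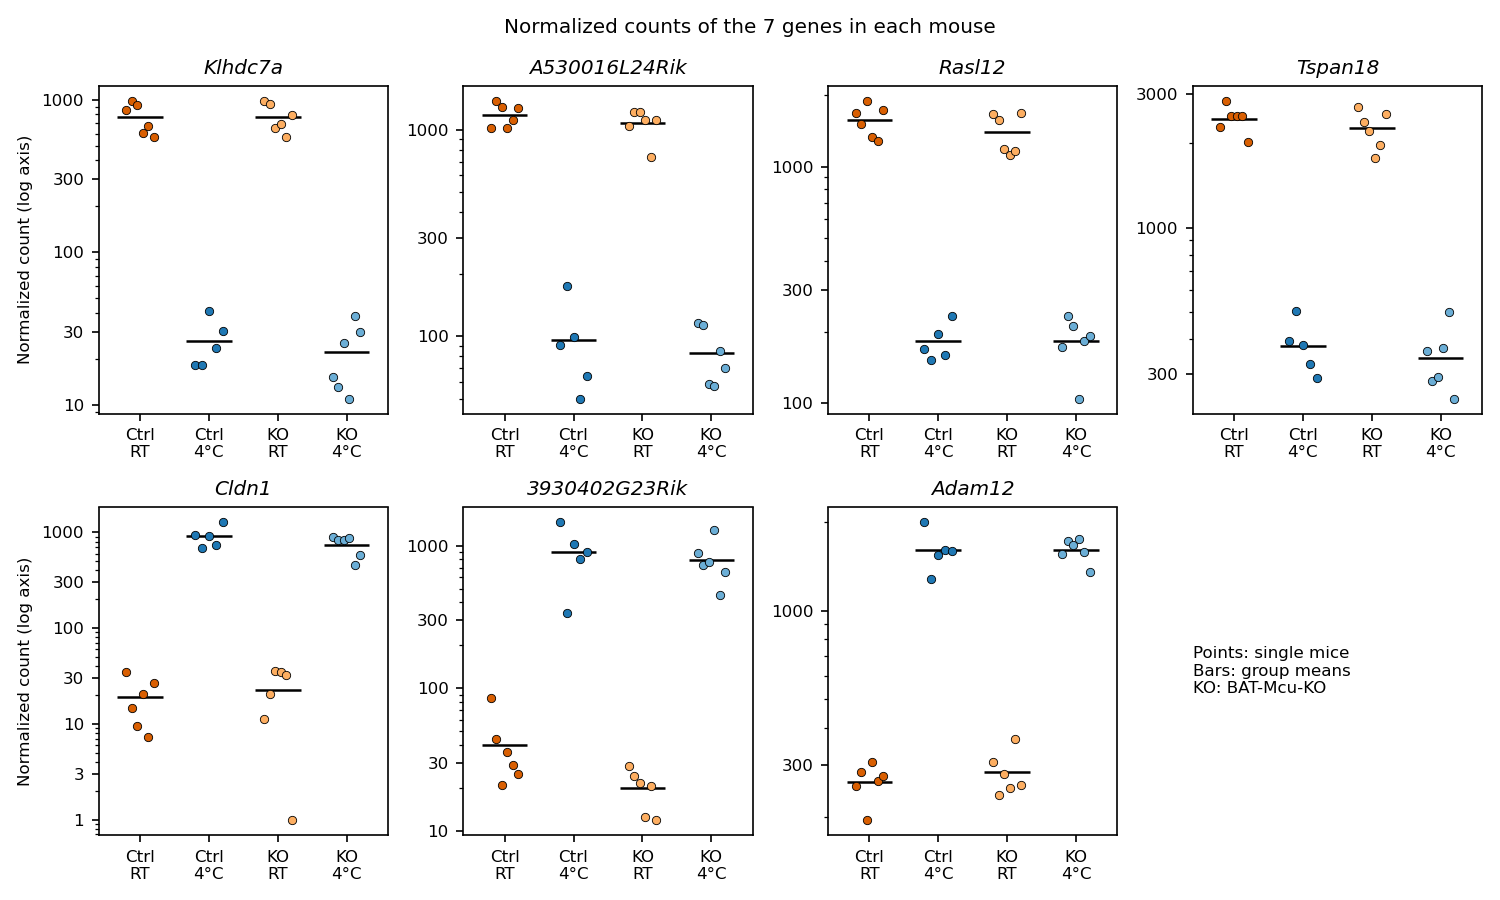
Normalized counts of the 7 genes (log axes, 1 panel per gene) in each of the 23 mice by group, with points for single mice and bars for group means. Top row, the 4 genes lower at 4°C, and bottom row, the 3 genes higher at 4°C; in each panel the RT and 4C mice do not overlap, and the lone low point in the Cldn1 panel is the BAT-Mcu-KO RT mouse at 0.987.

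Each of the 7 genes separated the 12 RT mice from the 11 mice at 4°C without an overlap, 3 with every 4C mouse above every RT mouse and 4 with every 4C mouse below. Over all genes, 7.94% had every 4C mouse above and 6.72% every 4C mouse below, and since the cold difference chose the 7, nothing further is read from this. The room between the groups varied. The nearest RT and 4C mice were 13.9-fold apart for Klhdc7a and 12.9-fold apart for Cldn1, against 4.78-fold for Rasl12, 4.18-fold for A530016L24Rik, 3.91-fold for 3930402G23Rik, 3.52-fold for Tspan18 and 3.49-fold for Adam12.

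The genes also differed in how steady they were. The pooled SD among mice of a group, on the log2 scale, was 0.21 for Adam12, 0.27 for Tspan18, 0.30 for Rasl12, 0.42 for A530016L24Rik, 0.48 for Klhdc7a, 0.63 for 3930402G23Rik and 0.97 for Cldn1, beside a median of 0.32 over all genes. The pooled value hides differences between groups. For Cldn1 the SD was 0.82 in Ctrl RT and 1.63 in BAT-Mcu-KO RT, where reads were few, and 0.34 and 0.39 at 4°C. For 3930402G23Rik it was 0.79 and 0.50 at 4°C. Klhdc7a had 0.33 and 0.31 at RT, and 0.49 and 0.69 at 4°C, where its reads were few.

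Because the genes differ in exon length (3110 to 10573 bases), their levels were set side by side per kb of exon. In Ctrl RT mice the mean per kb was 380 normalized counts for A530016L24Rik, 298 for Tspan18, 239 for Rasl12, 98.4 for Klhdc7a, 24.8 for Adam12, 12.0 for 3930402G23Rik and 3.91 for Cldn1. In this order the ranges of neighbouring genes overlapped, except those on either side of Klhdc7a. In Ctrl 4C mice the order was 272 for 3930402G23Rik, 189 for Cldn1, 152 for Adam12, 46.3 for Tspan18, 30.9 for A530016L24Rik, 27.7 for Rasl12 and 3.37 for Klhdc7a. The ranges of the first 3 overlapped one another, that of A530016L24Rik overlapped those of Tspan18 and Rasl12, and Klhdc7a stood below all. The order in BAT-Mcu-KO mice was the same at RT, and at 4°C Rasl12 (27.8 per kb) and A530016L24Rik (26.8 per kb) changed places.

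The genotype comparison asks whether these genes differ between BAT-Mcu-KO and control mice. Loss of Mcu and the Ucp1-Cre transgene go together in these mice, so their parts cannot be told apart. The choice did not use this comparison, but genes that move strongly in both genotypes leave less room for a genotype difference that changes with temperature. A genotype difference of equal size at RT and 4°C does not enter the cold difference. In limma fits over all 14651 genes with Benjamini-Hochberg adjustment, 0 of the 7 genes differed between BAT-Mcu-KO and control mice at RT, where 0.0478% of all genes were called, and 0 of 7 differed at 4°C, where 0.0751% were called. At an unadjusted p under 0.05 there was 1 gene at RT and 0 at 4°C, and DESeq2 and edgeR on the recovered reads also called 0 of 7 in each comparison. No gene of the 7 had genotypes that did not overlap, beside 0.218% of all genes at RT and 0.683% at 4°C.

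The gene with the unadjusted difference was 3930402G23Rik, at 19.8 ± 6.54 normalized counts in BAT-Mcu-KO RT and 40.0 ± 23.9 in Ctrl RT (SD, n = 6 each). Its log2 difference was -0.88 (SE 0.32, 95% interval -1.54 to -0.22), with limma adjusted p = 0.940. Of the 6 BAT-Mcu-KO mice, 3 lay lower than all controls. Ctrl RT replicate 1, at 85.9, was the highest RT mouse, and without it the log2 difference was -0.63. At 4°C the difference was -0.11 (SE 0.34, 95% interval -0.80 to 0.59, adjusted p = 0.976).

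The other differences at RT were small for the genes with narrow intervals. Adam12 differed by a log2 of 0.10 (95% interval -0.14 to 0.34), Tspan18 by -0.12 (-0.41 to 0.18), Rasl12 by -0.17 (-0.50 to 0.15) and A530016L24Rik by -0.15 (-0.60 to 0.30). Klhdc7a was at 0.01 (-0.51 to 0.52), a sign that turned with the scaling. For Cldn1 the interval ran from -1.07 to 0.96 around -0.05, and without the BAT-Mcu-KO RT mouse with 1 read the difference was 0.56. The fit cannot tell apart the sizes of a Cldn1 genotype difference that lie within that interval.

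At 4°C the genotypes were again close, and the intervals give the size of difference they leave room for. The log2 difference was 0.01 for Adam12 (95% interval -0.24 to 0.26), -0.02 for Rasl12 (-0.36 to 0.33), -0.16 for Tspan18 (-0.47 to 0.16) and -0.12 for A530016L24Rik (-0.60 to 0.35). The signs of the first pair turned with the scaling. Klhdc7a was at -0.30 (-0.84 to 0.23) and Cldn1 at -0.30 (-1.37 to 0.76). The fit shares a single spread per gene over all groups. For Cldn1 the SD on the log2 scale was 1.63 in BAT-Mcu-KO RT, against 0.34 in Ctrl 4C and 0.39 in BAT-Mcu-KO 4C. Its interval at 4°C thus also carries the spread at RT. The smallest adjusted p of the 7 was 0.844, for Klhdc7a.

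**Figure D2:**
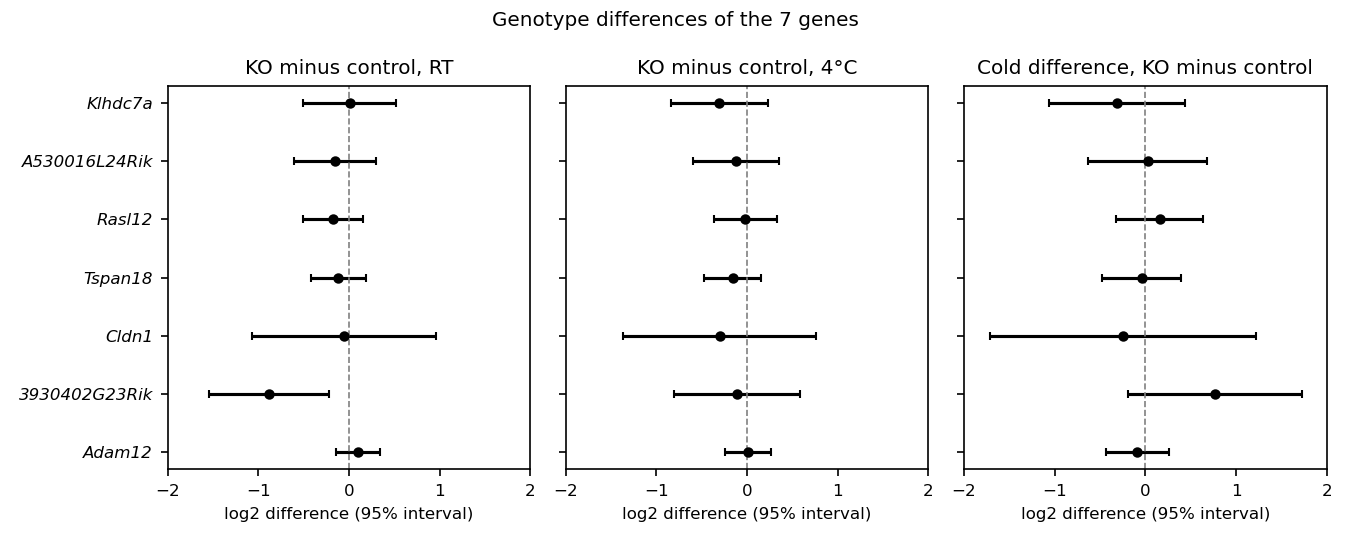
BAT-Mcu-KO minus control log2 differences of the 7 genes at RT, at 4°C and for the cold difference (interaction), as points with 95% intervals from the limma fit. All intervals but that of 3930402G23Rik at RT (-1.54 to -0.22) span 0, and those of Cldn1 are the widest.

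The interaction, the cold difference in BAT-Mcu-KO mice minus that in control mice, was called for 0 of the 7 genes by limma, DESeq2 and edgeR, with 0 at an unadjusted p under 0.05. Among all genes 0% were called by limma, while DESeq2 called 28 genes. The largest was that of 3930402G23Rik, 0.77 (SE 0.47, 95% interval -0.19 to 1.73, limma adjusted p = 0.855), and that of Adam12 had the narrowest interval, -0.44 to 0.26 around -0.09. Since the genes had to move strongly in both genotypes to be chosen, a gene with a large interaction was less likely to be among them.

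**Figure D3:**
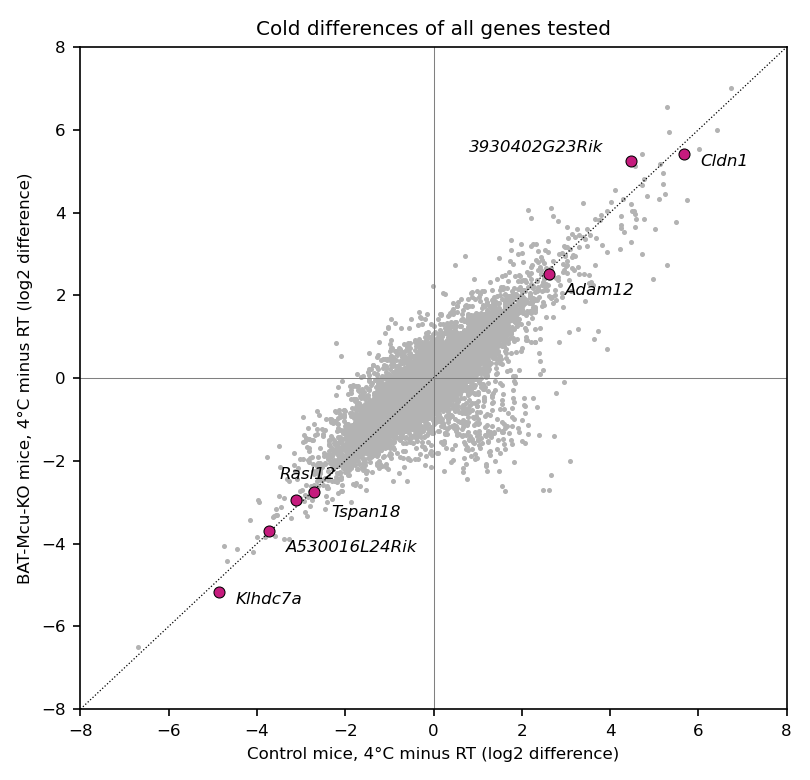
Log2 difference between 4C and RT in BAT-Mcu-KO mice (y axis) against control mice (x axis) for all 14651 genes (grey), with the 7 genes in pink and a dotted line of equal difference. The 7 genes run from -4.85 and -5.17 (Klhdc7a) to 5.67 and 5.42 (Cldn1), and since they were chosen for large differences in both genotypes, their place near the line follows from the choice.

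To describe relatives that were not picked for their cold difference, 116 genes of 5 protein families were listed, of which 78 were measured. Of these, 14 rose (17.9%) and 15 fell (19.2%) in the cold in control mice, where 22.3% of all genes rose and 23.7% fell. In BAT-Mcu-KO mice 14 rose (17.9%) and 20 fell (25.6%), beside 21.4% and 21.9% of all genes. The lists are thus near the background, and the median log2 difference over all genes was -0.02 in both genotypes. None of the 78 differed by genotype at either temperature by limma.

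Among the Kelch domain proteins, substrate adaptors and related proteins akin to Klhdc7a, 6 of 9 were measured. Klhdc2, a receptor subunit of a ubiquitin ligase, rose by a log2 difference of 0.77 (SE 0.14) in control and 0.50 (SE 0.13) in BAT-Mcu-KO mice. Klhdc1, its close relative, fell, with log2 differences of -1.65 (SE 0.25) and -1.62 (SE 0.24), as did Klhdc8b, with -0.76 and -0.73. The other 3 did not pass the test, and the median of the list was 0.08 for controls and -0.08 for BAT-Mcu-KO mice.

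Of the Ras-like and RGK GTPases, small switches that cycle between GTP and GDP, 24 of 30 were measured. In control mice 5 rose and 3 fell, and in BAT-Mcu-KO mice 4 rose and 6 fell, with list medians of -0.08 and -0.07. Gem, an RGK protein that inhibits calcium channels, rose from 23.4 ± 11.9 to 157 ± 27.7 normalized counts in control mice (SD, n = 6 and 5), a log2 difference of 2.85 (SE 0.38), and by 2.99 (SE 0.36) in BAT-Mcu-KO mice. Rasd1, a Ras-like gene known for induction by glucocorticoids, rose by 0.65 (limma adjusted p = 0.0255) and 1.42. The former call was lost under quantile and 75th percentile scaling and without Ctrl RT replicate 5 (0.45) or Ctrl 4C replicate 1 (0.50) or 3 (0.62). Mras, another relative of Ras, fell (-0.91 and -1.18). Rergl fell too, with means of 11.8 ± 2.80 at RT and 1.36 ± 2.65 at 4°C for controls and 7.87 and 2.67 for BAT-Mcu-KO mice, levels of a few reads. The latter call was lost without any one of 5 BAT-Mcu-KO mice, RT replicate 2, 3 or 4 or 4C replicate 2 or 5 (log2 differences of -1.35 to -1.04).

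Among the tetraspanins 21 of 28 were measured, and 2 rose and 5 fell in control mice while 2 rose and 7 fell in BAT-Mcu-KO mice. The list medians were -0.15 and -0.13. Tspan4, known from migrasomes, fell, with log2 differences of -1.27 (SE 0.13) and -1.16 (SE 0.12), and so did Tspan14, a partner of the protease ADAM10, with -1.09 (SE 0.10) and -0.97 (SE 0.10). Tspan9 rose by 0.67 (SE 0.16) and 0.74 (SE 0.16).

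Of the ADAM proteases and their TIMP inhibitors 15 of 17 were measured, and 3 rose and 1 fell in each genotype, with list medians of 0.23 and 0.13. Adam15 rose by 1.09 (SE 0.14) and 0.91 (SE 0.14), and Adam17, the sheddase of tumor necrosis factor, by 1.07 (SE 0.12) and 1.13 (SE 0.12). Adam22, which lacks protease activity, fell, with -1.0005 (SE 0.29) and -1.41 (SE 0.27).

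Claudins and tight junction proteins were the sparsest list, with 12 of 32 measured. In control mice 3 rose and 4 fell, and in BAT-Mcu-KO mice 4 rose and 4 fell, with list medians of 0.04 and 0.19. Cldn5, the endothelial claudin and one of the endothelial markers above, rose from 471 ± 274 to 1558 ± 606 normalized counts in control mice (SD, n = 6 and 5), a log2 difference of 1.80 (SE 0.30), and by 1.63 (SE 0.29) in BAT-Mcu-KO mice. Cgnl1, a cingulin-like junction protein, fell, with -1.44 (SE 0.11) and -1.55 (SE 0.11), and Jam2, an adhesion molecule, fell too, with -0.76 and -0.66.

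**Figure D4:**
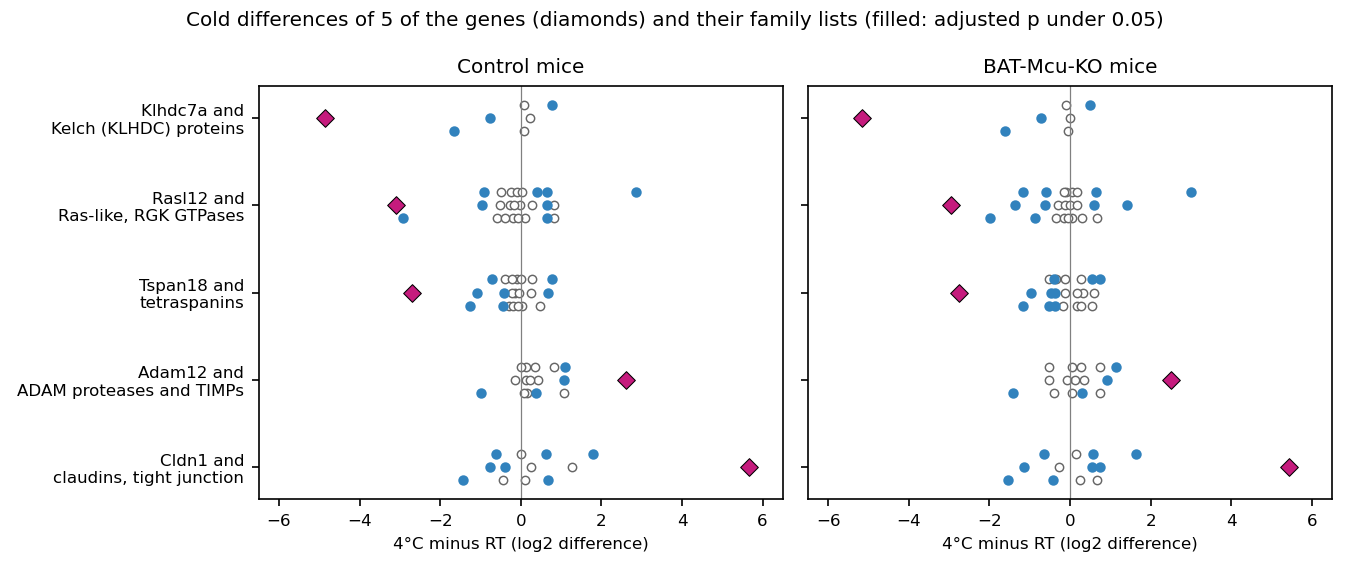
Log2 difference between 4C and RT in control mice (left) and BAT-Mcu-KO mice (right) for 5 of the genes (pink diamonds) and the measured members of their family lists (circles, filled where limma adjusted p was under 0.05). The list medians lie between -0.15 and 0.23, and Gem (2.85 and 2.99) and Rergl (-2.93 in control) are the relatives farthest from 0; vertical offsets within a row only separate points.

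The genes on either side were examined next, since a neighbour can share regulatory sequence or reads. Of 14 measured neighbours, 2 rose and 7 fell in control mice and 2 rose and 5 fell in BAT-Mcu-KO mice, and none differed by genotype by limma. Over all genes, 22.3% rose and 23.7% fell in control mice, beside 21.4% and 21.9% in BAT-Mcu-KO mice. Described first are those with the sign of the gene beside them and a log2 difference beyond 1 in both genotypes. That limit was set after their values were seen, and nothing is read from how many passed it.

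The closest of these was Tmem179, which lies 0.262 kb from A530016L24Rik on the other strand, with the 3′ ends of the genes facing each other. It was at 26.7 ± 2.38 normalized counts in Ctrl RT (SD, n = 6) and 1.34 ± 1.53 in Ctrl 4C (SD, n = 5), against 27.1 ± 6.85 and 1.504 ± 2.04 in BAT-Mcu-KO mice, so that the 4C levels were under the worth of 3 reads. Since reads were counted irrespective of strand, and Tmem179 had far fewer of them than A530016L24Rik (1182 ± 154 in Ctrl RT), reads that run on from A530016L24Rik cannot be told apart from those of Tmem179.

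Kbtbd13, a BTB-Kelch gene best known from skeletal muscle and 6.854 kb from Rasl12, fell in both genotypes. Its normalized counts were 40.1 ± 22.2 at RT and 4.68 ± 3.70 at 4°C for controls (SD, n = 6 and 5), and 46.3 ± 15.6 and 4.05 ± 1.85 for BAT-Mcu-KO mice (SD, n = 6 each). The summed skeletal muscle markers (10 of 10 measured) varied widely within groups, from 31.8 to 8334 in Ctrl RT, 7.47 to 43618 in Ctrl 4C, 21.4 to 61830 in BAT-Mcu-KO RT and 52.6 to 10982 in BAT-Mcu-KO 4C. Their part in this result was not tested.

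Irs2, an adaptor of the insulin receptor and 55.985 kb from 3930402G23Rik, rose from 253 ± 46.8 to 1446 ± 226 normalized counts in control mice, a log2 difference of 2.51 (SE 0.20), and by 2.46 (SE 0.19) in BAT-Mcu-KO mice. Fank1, which ends 1.667 kb from the end of Adam12 on the other strand, rose as well. Its normalized counts were 1.68 ± 1.82 at RT and 26.2 ± 16.9 at 4°C for controls, and 4.24 ± 2.93 and 16.4 ± 6.31 for BAT-Mcu-KO mice. As with Tmem179, its level is a small share of that of the gene beside it, and its reads cannot be told apart from reads that run on from Adam12.

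Tspan18 gave the contrary case. Trp53i11 ends at the base next to the end of Tspan18 on the other strand, and its log2 differences were 0.18 (SE 0.32, limma adjusted p = 0.673) for control and -0.07 (SE 0.31, adjusted p = 0.877) for BAT-Mcu-KO mice, beside -2.70 and -2.74 for Tspan18. Cd82, a tetraspanin 84.606 kb away on the other side, was at -0.07 (SE 0.22) and 0.16 (SE 0.21). Neither neighbour of Cldn1 rose. Il1rap was at -0.88 (SE 0.33) in control and -0.13 (SE 0.32) in BAT-Mcu-KO mice. Trp63 fell in control mice, with -2.12 (SE 0.56, limma adjusted p = 0.00292), from 6.82 ± 4.38 to 0.901 ± 1.35 normalized counts. In BAT-Mcu-KO mice Trp63 was at -0.94 (SE 0.53, limma adjusted p = 0.160), with means of 7.59 and 3.65. These are levels of a few reads. The control difference of Il1rap counts among those that fell, but that call was lost under quantile scaling, with only the compared groups, and without Ctrl RT replicate 2 or 4 or Ctrl 4C replicate 2, 3 or 4 (log2 differences of -0.86 to -0.65).

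The remaining neighbours moved less. Aldh4a1, a proline breakdown enzyme on one side of Klhdc7a, fell, with log2 differences of -0.64 and -0.62. Igsf21, on the other side, fell in control mice (-0.61) and was at -0.29 in BAT-Mcu-KO mice. Mtfmt, the mitochondrial formyltransferase near Rasl12, fell in control mice (-0.61) and was at -0.14 in BAT-Mcu-KO mice. Kif26a was at -0.48 in control mice and fell in BAT-Mcu-KO mice (-0.89), and Abhd13 was at 0.28 and 0.23. Dock1 was at 0.02 in control mice and fell in BAT-Mcu-KO mice (-0.25), a call lost with the replicate block and without any one of 6 mice. Overlaps were few. Slc51b shares 91 exon bases with Rasl12 on the other strand and Mir2139 lies within the exon of Klhdc7a, and neither was among the genes measured. Gm23631, Gm19514 and A130023I24Rik lie within Adam12 on its strand, share no exon bases with it and were not measured either.

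**Figure D5:**
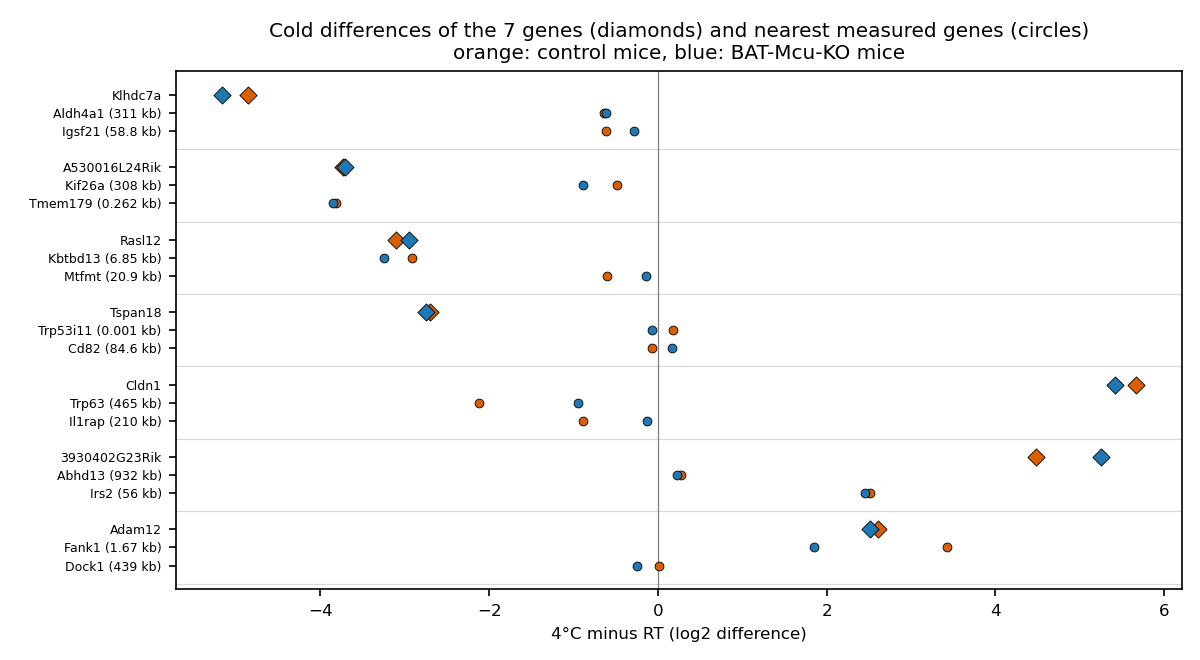
Log2 difference between 4C and RT in control (orange) and BAT-Mcu-KO mice (blue) for the 7 genes (diamonds) and the nearest measured gene on either side (circles, distance in kb). Tmem179, Kbtbd13, Irs2 and Fank1 lie beyond 1 on the side of their neighbour among the 7 in both genotypes. Aldh4a1, Igsf21, Mtfmt, Kif26a and Abhd13 lie on that side too but nearer to 0, while Trp53i11, 0.001 kb from Tspan18, lies near 0. Trp63 and Il1rap lie on the side opposite to Cldn1 in both genotypes.

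The genes whose pattern over the 23 mice was most like that of each gene were named by the root mean square difference of centred log2 values, where 0 would be an equal pattern. These distances are descriptions over 23 mice that share the split between RT and 4°C. Tspan18 was nearest to Srebf1 (0.28), the lipogenic transcription factor, then Per3 (0.29), a clock gene, and Ano1 (0.29), a chloride channel. Rasl12 was nearest to Ampd2 (0.33), an AMP deaminase, and then to the same Srebf1 (0.33) and Per3 (0.34). A530016L24Rik was nearest to Thrsp (0.46), a lipogenesis gene responsive to thyroid hormone, then Angpt1 (0.48) and Ampd2 (0.52). For Klhdc7a the distances were larger, to Hcar1 (0.57), the lactate receptor of adipocytes, Aplnr (0.75), the apelin receptor, and Angpt1 (0.82), a ligand of the endothelial Tie2 receptor.

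On the increased side, Adam12 had the smallest distance of the 7, to Gm826 (0.27), then Hspa8 (0.27), a constitutive chaperone, and Chka (0.28), choline kinase alpha. 3930402G23Rik was nearest to Gmpr (0.47), GMP reductase, then Nr4a3 (0.56), an orphan nuclear receptor, and Ppargc1a (0.58), the coactivator of mitochondrial biogenesis. Cldn1 was farthest from any other gene, with Arntl (0.81), the clock activator BMAL1, Plk3 (0.85), a polo-like kinase, and 3930402G23Rik (0.95). Adam12, with the smallest distance, also had the smallest spread among mice of a group (0.21), and Cldn1, with the greatest, the widest (0.97). The distances are not scaled to the size of a gene's differences. On the log2 scale, the SD over all mice was 1.32 for Adam12, 2.57 for 3930402G23Rik and 2.97 for Cldn1. Distances of different genes are thus not on equal terms.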

How the data were processed

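Per the labels and the study's methods, BAT RNA was made into Smart-seq2 libraries, aligned to mm10 with STAR 2.4.0j and counted over exons of GENCODE genes, irrespective of strand, with HTSeq. The authors left out genes unless 6 or more libraries had 8 or more reads, and deposited size-factor normalized signal (normalized counts) from DESeq2, without raw counts. The 7 genes and all lists were chosen with earlier results of these data known. Whole reads were recovered from the steps of the values (100% whole within 0.1 read) and used for library totals and for the alternatives with DESeq2 1.42.0 and edgeR 4.0.16.

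The test was limma 3.58.1 on log2(normalized count + 1), which understates changes of low genes, with 1 mean per group, all 23 samples, a variance trend and Benjamini-Hochberg adjustment over 14651 genes at 0.05. It was tested on simulated data. Positions came from GENCODE on GRCm38, where 94.1% of symbols matched. Intervals are 95% intervals of the fit, and limits from read numbers cover counting error only. Besides the 7 genes, Mcu and Ucp1, the genes named are the 3 nearest in pattern, the nearest measured neighbours and, per family, up to 2 risers and 2 fallers called in both genotypes, of which 1 is not reported here. Replicate numbers did not pair the samples.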

Additional observations from a re-analysis of the deposited data

Results flagged for a closer look

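Of 28 sets of values (7 genes in 4 groups), 1 held a mouse that stood apart by Dixon's test. A530016L24Rik was at 735 normalized counts (791 reads) in BAT-Mcu-KO RT replicate 5, with the next lowest of the 6 mice at 1042, a gap of 0.689 of the range on the log2 scale against a limit of 0.625. Chance marks about 1 in 20 sets. The mouse was still 4.18-fold above the highest mouse at 4°C.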

How the results depend on the processing

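None of the 7 genes was called by genotype or in the interaction under any alternative run. Over all genes, the 7 called at RT were 3 with only the 2 compared groups and 20 by DESeq2. The 11 at 4°C were 7 without the variance trend, 2 with only the compared groups, 7 with the replicate block, 23 by DESeq2 and 6 by edgeR, and 3 to 16 with a mouse left out. The 0 in the interaction were 28 by DESeq2 and 0 to 1 with a mouse left out. With a mean of 50 or more required, 12 family genes were lower at 4°C in BAT-Mcu-KO mice, not 20, as fewer genes were tested. A pseudocount of 10 gave -4.43 for Klhdc7a (cold, control) and 4.72 for 3930402G23Rik (cold, BAT-Mcu-KO).

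Signs turned only for small, uncalled differences. Under quantile and 75th percentile scaling, Klhdc7a at RT was -0.016 and -0.020, Rasl12 at 4°C 0.010 and 0.011, the Tspan18 interaction 0.012 and 0.015, and the cold difference of Dock1 in control mice -0.081 and -0.089. Quantile scaling gave -0.011 for Adam12 at 4°C and 0.030 for the cold difference of Il1rap in BAT-Mcu-KO mice. Cldn1 at RT was 0.10 with a pseudocount of 10, 0.25 by DESeq2 and 0.23 by edgeR, the A530016L24Rik interaction -0.027 by DESeq2, and the cold difference of Trp53i11 in BAT-Mcu-KO mice 0.00992 and 0.00328 by DESeq2 and edgeR. The cause was not tested.

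With a mouse left out, the ranges were -0.43 to 0.10 (3930402G23Rik), -0.32 to 0.13 (A530016L24Rik), -0.066 to 0.094 (Adam12) and -0.098 to 0.13 (Rasl12) at 4°C, -0.28 to 0.56 (Cldn1) and -0.071 to 0.090 (Klhdc7a) at RT, -0.18 to 0.27 (A530016L24Rik) and -0.16 to 0.067 (Tspan18) in the interaction. For cold they were -0.21 to 0.15 (Cd82), -0.040 to 0.058 (Dock1) and -9.4e-05 to 0.37 (Trp53i11) in control and -0.27 to 0.095 (Trp53i11) and -0.35 to 0.019 (Il1rap) in BAT-Mcu-KO mice.

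With 75th percentile scaling, the median cold difference over the whole table for controls was -0.13 instead of -0.02, and 38.2% instead of 48.5% of calls were higher. Same-numbered mice of the 2 genotypes correlated at -0.04 on average at RT and 0.12 at 4°C (2 of 5 pairs over 0.1, 2 of 5 mice best with their own number), so the numbers were not taken to pair them, and the replicate block left the 7 genes at 0 calls. A filter of 8 or more in every mouse removed Cldn1. Of the 21 nearest genes named, 15 to 21 were kept under 4 alternatives chosen after seeing the data. The low RT levels of Cldn1 (1 to 46 reads) and 4C levels of Klhdc7a (9 to 49 reads) limit their precision.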
